A study of Mus musculus with 3 samples.

Results

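ERV1 repeats are class I endogenous retroviruses, the remnants in the genome of viruses related to the gammaretroviruses, of which murine leukaemia virus (MLV) is the type member. The members described here were the repeat consensus sequences of the RepBase collection whose name carries the class ERV1, leaving out names with IAP, ETn or MusD, and they numbered 233 of 1564 repeat sequences and of 50407 sequences counted in all. They were chosen by name, though with earlier results of these data known. Counts came from polyadenylated RNA of 3 cultures of mouse embryonic stem cells (ESCs) on a C57BL/6x129sV background. The labels call the cells male and isogenic. The groups were wildtype cells (clone WT26), DAXX-/- cells (clone KO2-3, the DAXX knockout) and ATRX-/- cells (clone KO1-44, the ATRX knockout), the knockouts made with CRISPR. Every group was 1 clone with 1 library, grown in serum and leukaemia inhibitory factor after passages off irradiated feeder cells, so no difference below has a replicate check and clone cannot be told apart from genotype. Intervals in parentheses are 95% counting intervals of a log2 fold unless stated otherwise. They cover counting error only.

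A provirus of this class carries the genes gag, pol and env between long terminal repeats (LTRs), which hold the promoter and the polyadenylation signal. RepBase lists the LTR and the internal part as separate sequences, and LTRs left alone after recombination are common in the genome. In ESCs such elements are held silent by the corepressor TRIM28 and the histone methyltransferase SETDB1, and the zinc finger protein ZFP809 brings them to the primer binding site of MLV. ATRX, a chromatin remodeller, and DAXX, a chaperone of histone H3.3, are known to take part in silencing at endogenous retroviruses.

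The libraries held 11224100 to 13988376 reads on transcripts, the totals by which all values below were scaled, and 77.01% to 78.9% of reads were aligned. Atrx had 4582 reads in wildtype, 3576 in DAXX-/- cells and 1800 in ATRX-/- cells, where it fell by 1.35 on the log2 scale (-1.43 to -1.27). Daxx had 1125, 623 and 972 reads and its log2 fold in DAXX-/- cells was -0.54 (-0.68 to -0.39), less than the 2-fold set as limit here, so these counts alone do not check the DAXX-/- label. Although all cells are labelled male, the summed level of 9 Y-linked genes was 152 RPM (reads per 1000000 transcript reads) in wildtype, 8.82 in DAXX-/- cells and 67.2 in ATRX-/- cells. The 10 pluripotency markers checked, Pou5f1, Nanog and Sox2 among them, were all measured, with 0 past the limit in any comparison and a summed level of 5980.2 to 6149.8 RPM.

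ERV1 sequences took 978 reads in wildtype, 2282 in DAXX-/- cells and 932 in ATRX-/- cells, or 69.9, 203 and 66.6 RPM. The summed ERV1 reads rose 2.91-fold in DAXX-/- cells against wildtype, a log2 fold of 1.54 (1.43 to 1.65). The ATRX-/- library stood at -0.07 (-0.20 to 0.06) against wildtype and fell by 1.61 (-1.72 to -1.50) against DAXX-/- cells. The DAXX-/- library was thus the high one, with wildtype and ATRX-/- libraries close together. The sum rested on 1 sequence, RLTR4I_MM, the internal part of MLV-like elements. This sequence took 51.6% of ERV1 reads in wildtype (exact binomial 95% interval 48.5% to 54.8%), 78.4% in DAXX-/- cells (76.6% to 80.03%) and 62.9% in ATRX-/- cells (59.7% to 65.99%). Without it, the remaining 232 sequences stood at 0.38 (0.19 to 0.56) in DAXX-/- cells, at -0.45 (-0.66 to -0.25) in ATRX-/- cells and at -0.83 (-1.03 to -0.63) between the knockouts.

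**Figure D1:**
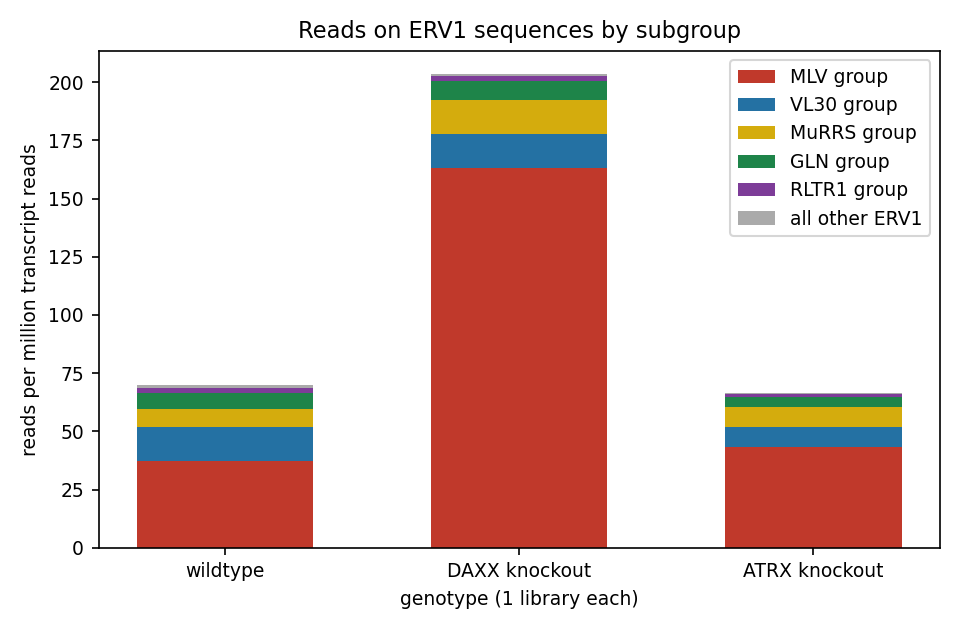
Reads on ERV1 sequences in RPM (vertical axis, from 0) in the 1 library of each genotype, stacked by subgroup of names. The DAXX knockout column reaches 203 against 69.9 in wildtype and 66.6 in the ATRX knockout, and the MLV group makes up 163, 37.2 and 43.25 of these in the same order.

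Of the 233 members, 203 had 0 reads in all 3 libraries and 12 had at least 30 reads over the 3 libraries, the minimum set for calling a change. A sequence was called when its whole interval lay beyond 2-fold. In DAXX-/- cells against wildtype, 1 of the 12 rose and 0 fell. Of all 112 repeat sequences with at least 30 reads, 5.36% rose and 0% fell in that comparison, and of 13197 genes 0.371% rose and 1.7% fell. In ATRX-/- cells against wildtype 0 of the 12 were called, where 2.68% of repeat sequences rose and 0.893% fell, and 0.599% of genes rose and 1.12% fell. In ATRX-/- cells against DAXX-/- cells 0 rose and 1 fell, with 0% and 1.79% of repeat sequences and 0.78% and 0.311% of genes. The single call in the first and the last comparison was the same sequence, RLTR4I_MM. With 12 sequences measured, 1 call is 1 in 12, and nothing particular to ERV1 as a class is read from it. The comparisons reuse libraries, so the calls are not independent of each other.

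The MLV group consisted of RLTR4I_MM, with 7587 bases, and its LTR, RLTR4_MM, with 742 bases. RLTR4I_MM had 505 reads in wildtype, 1788 in DAXX-/- cells and 586 in ATRX-/- cells, which is 36.1, 159 and 41.9 RPM. It rose 4.41-fold in DAXX-/- cells, a log2 fold of 2.14 (2.00 to 2.29). The ATRX-/- library lay close to wildtype, at 0.21 (0.04 to 0.39), and below DAXX-/- cells, by -1.93 (-2.06 to -1.79). RLTR4_MM had 15, 43 and 19 reads in the same order. Its log2 fold was 1.84 (0.96 to 2.79) in DAXX-/- cells, 0.34 (-0.71 to 1.42) in ATRX-/- cells and -1.50 (-2.36 to -0.69) between the knockouts. The LTR had the direction of the internal part in each comparison, but with its lower counts its interval reached inside 2-fold under the main scaling. With trimmed mean of M values (TMM) scaling, which moved all DAXX folds up a little, its interval became 1.05 to 2.88 and passed the limit. Among all 112 repeat sequences with at least 30 reads, 1 had a larger log2 fold than RLTR4I_MM in DAXX-/- cells against wildtype, and 14 did in ATRX-/- cells against wildtype.

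The MuRRS group, named for murine retrovirus-related sequences, took in the internal sequence MuRRS4-int and 9 LTRs named LTRIS. MuRRS4-int, with 5063 bases, had 26 reads in wildtype, 63 in DAXX-/- cells and 29 in ATRX-/- cells. Its log2 fold in DAXX-/- cells was 1.59 (0.91 to 2.31), short of the limit, but with TMM scaling the interval was 1.01 to 2.41 and the sequence passed. The ATRX-/- library was at 0.16 (-0.66 to 0.98) against wildtype and at -1.44 (-2.12 to -0.78) against DAXX-/- cells. MuRRS4-int thus showed the same order of libraries as RLTR4I_MM, from far fewer reads. Related consensus sequences may exchange reads, so the 2 are not independent measurements. The point values of the LTRs named below varied, but their intervals overlap, so differences between these LTRs were not resolved. LTRIS3 had 14, 28 and 26 reads, a log2 fold of 1.32 (0.34 to 2.36) in DAXX-/- cells and of 0.89 (-0.10 to 1.94) in ATRX-/- cells. LTRIS2, with 4, 11 and 9 reads, was the sequence nearest below the minimum of 30. It was at 1.78 (0.02 to 3.88) in DAXX-/- cells and at 1.17 (-0.67 to 3.32) in ATRX-/- cells, where the interval includes no change. LTRIS_Mus, with 45, 46 and 39 reads, was at 0.35 (-0.28 to 0.97) and -0.21 (-0.86 to 0.44), and LTRIS_Mm, with 17, 14 and 14 reads, at 0.04 (-1.09 to 1.14) and -0.28 (-1.41 to 0.83). Both of these had intervals that include no change. Summed, the group had 108, 163 and 117 reads, at 0.91 (0.55 to 1.28), 0.11 (-0.28 to 0.51) and, between the knockouts, -0.80 (-1.15 to -0.44).

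**Figure D2:**
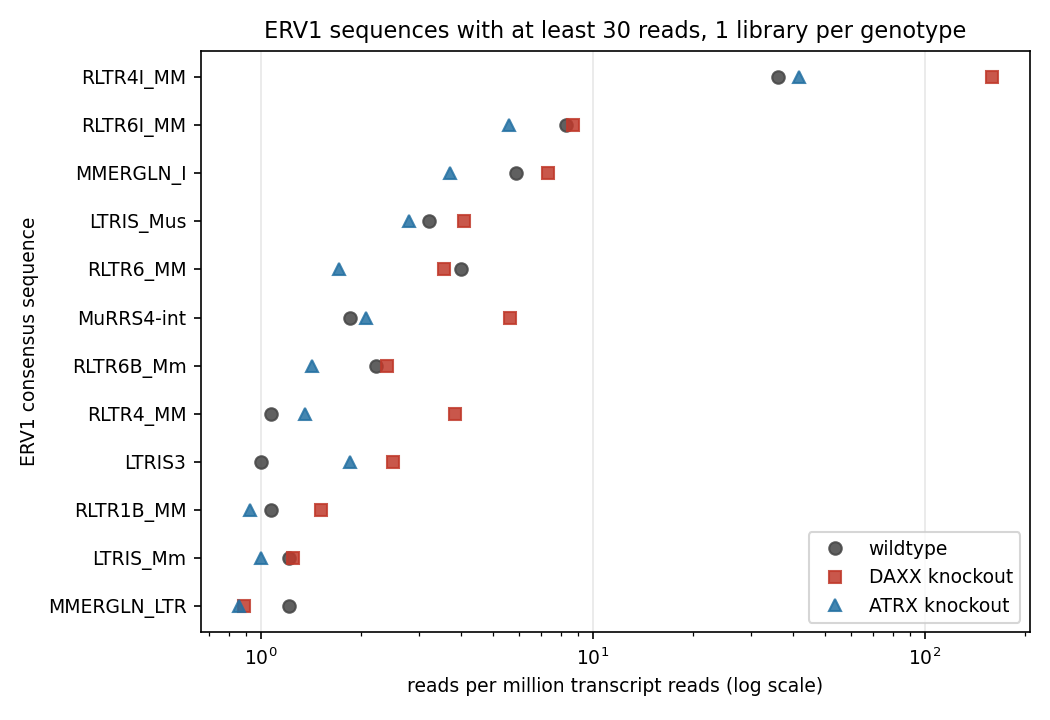
RPM on a log axis for the 12 ERV1 sequences with at least 30 reads, ordered by total reads, with 1 point per library. The DAXX knockout point lies to the right of wildtype in 10 of the 12 and to the right of the ATRX knockout in all 12. In RLTR4I_MM, RLTR4_MM and MuRRS4-int it is at 159, 3.83 and 5.61, while wildtype and ATRX knockout points lie near each other.

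A different order of libraries was seen in the VL30 group, whose names are RLTR6 and its variants, LTRs and internal sequence of mouse virus-like elements that are copied with the help of other retroviruses. RLTR6I_MM, the internal sequence, had 116 reads in wildtype, 98 in DAXX-/- cells and 78 in ATRX-/- cells. It stood at 0.07 (-0.33 to 0.47) in DAXX-/- cells and at -0.57 (-1.01 to -0.15) in ATRX-/- cells. RLTR6_MM, an LTR, had 56, 40 and 24 reads, at -0.17 (-0.79 to 0.44) and -1.22 (-1.98 to -0.51), and was the lowest of the 12 in ATRX-/- cells. RLTR6B_Mm, with 31, 27 and 20 reads, was at 0.12 (-0.68 to 0.91) and -0.63 (-1.52 to 0.22). The group as a whole held 204, 165 and 122 reads and stood at 0.01 (-0.29 to 0.31) in DAXX-/- cells, -0.74 (-1.08 to -0.41) in ATRX-/- cells and -0.75 (-1.10 to -0.41) between the knockouts. The ATRX-/- library was the low one for all 3 sequences, and none passed the 2-fold limit. MMVL30, an internal VL30 sequence that RepBase does not class as ERV1 and that is not a member, had 253, 227 and 214 reads, at 0.16 (-0.10 to 0.42) and -0.24 (-0.51 to 0.03).

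The GLN group, named after the glutamine tRNA primer of these elements, comprised MMERGLN_I and MMERGLN_LTR. MMERGLN_I had 82 reads in wildtype, 82 in DAXX-/- cells and 52 in ATRX-/- cells, with log2 folds of 0.32 (-0.14 to 0.78) and -0.66 (-1.19 to -0.14) against wildtype. Between the knockouts it was at -0.97 (-1.50 to -0.46). MMERGLN_LTR, the measured member with the fewest reads, had 17, 10 and 12, and its intervals of -1.74 to 0.76 and -1.70 to 0.65 include no change and 2-fold lower. Of the 10 sequences whose name has RLTR1 with no digit directly after it, RLTR1B_MM alone was measured, with 15, 17 and 13 reads, at 0.50 (-0.59 to 1.60) and -0.21 (-1.40 to 0.96). RLTR1C_MM had 12, 7 and 3 reads. The log2 fold of the GLN group in ATRX-/- cells was -0.63 (-1.11 to -0.16) and that of the VL30 group -0.74, beside a median of -0.54 over all 112 repeat sequences, -0.58 for summed LINE-1 and -0.55 for summed ERV3 reads. The intervals of both groups include the median over repeat sequences.

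**Figure D3:**
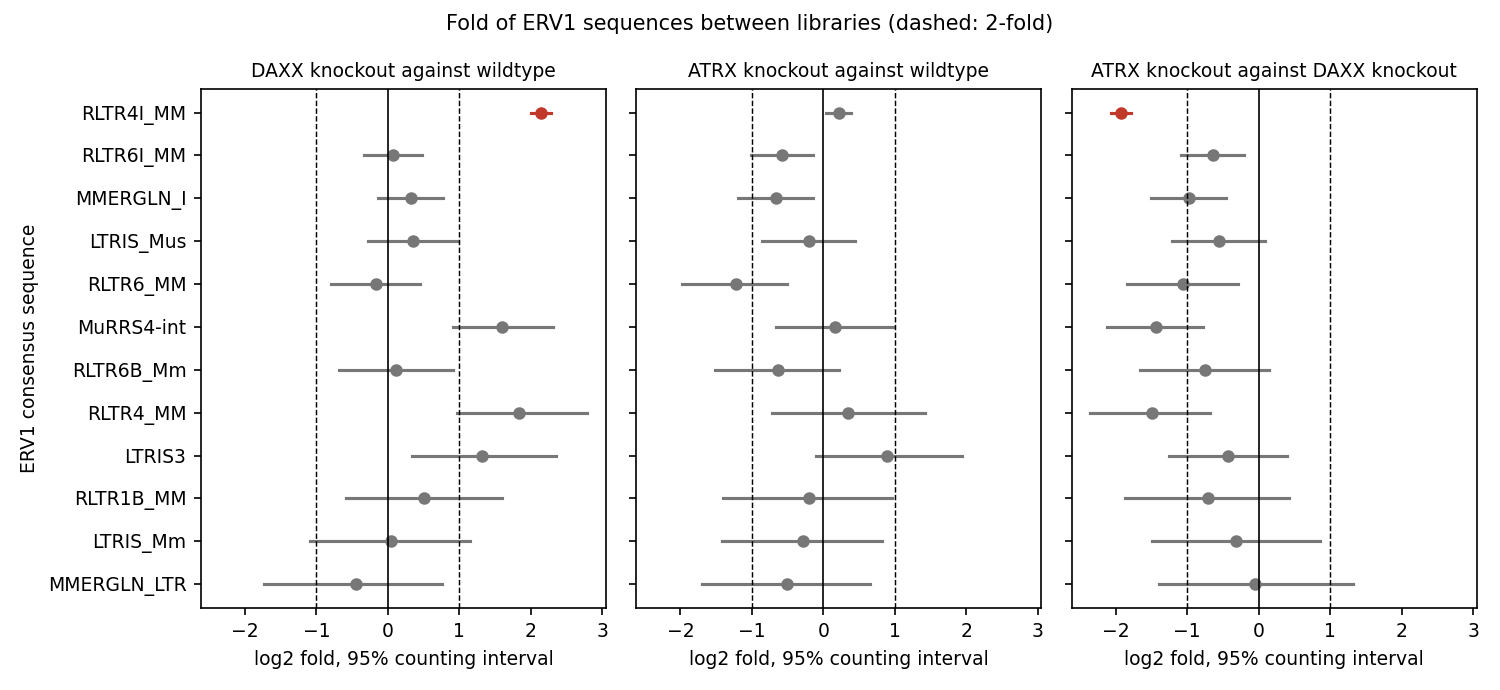
Log2 fold (points) with 95% counting interval (lines) of the 12 measured ERV1 sequences in the 3 comparisons, with dashed lines at 2-fold and called sequences in red. RLTR4I_MM is the called sequence in the first and last panels, at 2.14 and -1.93, and all 12 points lie below 0 in the last panel.

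Over the 12 measured sequences the median log2 fold, with a prior count of 1, was 0.33 in DAXX-/- cells against wildtype, beside 0.08 over the 112 repeat sequences and -0.07 over genes. It was -0.23 in ATRX-/- cells, beside -0.54 over repeat sequences and -0.05 over genes. Between the knockouts it was -0.69, beside -0.59 and 0.03. Of the 12, 10 lay above 0 in DAXX-/- cells, beside 64 of the 112 repeat sequences. In ATRX-/- cells 8 of the 12 lay below 0, beside 90 of the 112, and 12 of 12 were lower in ATRX-/- cells than in DAXX-/- cells, as were 103 of the 112. The medians depend on the minimum of 30 reads. Over all ERV1 sequences with at least 1 read the median was -0.08 in DAXX-/- cells, on the other side of 0, and -0.59 in ATRX-/- cells. A lower level in ATRX-/- cells than in DAXX-/- cells was thus seen in most of the repeat sequences measured. RLTR4I_MM stood near the end of that range, with 110 of the 112 at a higher log2 fold.

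In RPM per kilobase of sequence, which allows levels of different sequences to be compared, the order within ERV1 differed between libraries. In wildtype RLTR6_MM stood at 6.61, LTRIS_Mus at 5.48 and RLTR4I_MM at 4.76, with RLTR6B_Mm at 3.90. In DAXX-/- cells RLTR4I_MM was highest at 21.0, followed by LTRIS_Mus at 6.98, RLTR6_MM at 5.88 and RLTR4_MM at 5.16. In ATRX-/- cells RLTR4I_MM was at 5.52, LTRIS_Mus at 4.75, LTRIS3 at 3.61 and RLTR6_MM at 2.83. By counting error alone, RLTR4I_MM and LTRIS_Mus were not resolved in wildtype, where the log2 ratio of their densities was -0.20 (-0.65 to 0.27), or in ATRX-/- cells, where it was 0.22 (-0.25 to 0.72). In DAXX-/- cells it was 1.59 (1.17 to 2.04). Against RLTR6_MM the ratio for RLTR4I_MM was -0.47 (-0.87 to -0.05) in wildtype, 1.84 (1.38 to 2.33) in DAXX-/- cells and 0.96 (0.38 to 1.62) in ATRX-/- cells. The densities rest on 24 to 56 reads for the LTRs and depend on how reads were placed between related sequences.

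LTR and internal part took unlike shares of the reads in the different subgroups. RLTR4_MM made up 2.88% of the reads on RLTR4_MM plus RLTR4I_MM in wildtype (1.62% to 4.71%), 2.35% in DAXX-/- cells (1.70% to 3.15%) and 3.14% in ATRX-/- cells (1.90% to 4.86%), while it is 8.91% of their joint length. These 3 shares have overlapping intervals. RLTR6_MM made up 32.6% (25.6% to 40.1%), 28.99% (21.6% to 37.3%) and 23.5% (15.7% to 32.96%) of the reads on RLTR6_MM plus RLTR6I_MM, against 7.23% of the length. With MMVL30 added to the internal reads, a choice made after seeing the data, the share was 13.2% (10.1% to 16.8%), 10.96% (7.95% to 14.6%) and 7.59% (4.93% to 11.1%), against 5.02% of the length, which the last interval includes. For the GLN group the LTR took 17.2% (10.3% to 26.1%), 10.9% (5.34% to 19.08%) and 18.8% (10.1% to 30.5%), against 5.38% of the length. The MLV LTR share lay below its length share in all 3 libraries. The GLN LTR share lay above it in wildtype and ATRX-/- cells, and in DAXX-/- cells its interval includes the length share. These shares are exact binomial intervals within a library and depend on how reads that match several consensus sequences were placed.

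The names give the host in which each consensus was described. Of 49 sequences from Mus, 28 had at least 1 read, and they took 977 of the 978 ERV1 reads in wildtype, 2282 of 2282 in DAXX-/- cells and 931 of 932 in ATRX-/- cells. Of 52 sequences from Rattus, LTR3_Rn had 1 read in wildtype and RMER2_Rn 1 read in ATRX-/- cells. The 38 human sequences, the 24 of Eutheria or Mammalia, the 8 of Murinae or Muridae, the 2 of Rodentia and 60 of other hosts had 0 reads, which allows up to 3 reads, or 0.267 RPM in the shallowest library, for each. Whether diverged genomic copies of such elements would align to their consensus was not tested.

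MuRVY elements, which lie in many copies on the mouse Y chromosome, were near the limit of detection. MURVY_LTR had 3 reads in wildtype, 3 in DAXX-/- cells and 1 in ATRX-/- cells, and MURVY-int 1, 0 and 0, so no fold is given. Genes of the Y chromosome differed between the same libraries. Ddx3y, an RNA helicase, had 775 reads in wildtype and 0 in both knockouts. Eif2s3y, a translation factor subunit, had 768, 32 and 705. Uty had 434, 17 and 178, Uba1y 60, 1 and 21, and Kdm5d 88, 49 and 35, so the genes did not share 1 pattern. The relation of these levels to the MuRVY reads was not tested.

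Among other repeats, intracisternal A particles (IAPs), retroviruses of another class, are known targets of ATRX and DAXX. Summed IAP reads rose in both knockouts, by a log2 fold of 1.74 (1.68 to 1.79) in DAXX-/- cells and 1.20 (1.15 to 1.26) in ATRX-/- cells. The MLV group was at 2.13 (1.99 to 2.28) and 0.22 (0.05 to 0.39). The intervals of the MLV group and of summed IAP reads do not overlap in either comparison, by counting error only. RLTR1IAP, a single IAP sequence, was at 3.53 (2.81 to 4.35) in DAXX-/- cells, above the MLV group. In ATRX-/- cells RLTR1IAP was at 2.65 (1.91 to 3.49). IAPEZI, another IAP sequence, was at 1.91 (1.83 to 1.99) and 1.36 (1.28 to 1.45) in the same order. Of 15 measured IAP sequences, 4 were called higher in DAXX-/- cells and 3 in ATRX-/- cells. Over all 112 repeat sequences, IAPs included, the shares were 5.36% and 2.68%. Between the knockouts, IAP was at -0.53 (-0.58 to -0.49) and the MLV group fell by 1.92 (-2.05 to -1.78). Within this set of libraries the MLV-like rise was seen in DAXX-/- cells, and whether the genotypes differ in it cannot be tested with 1 clone each. Both knockouts are compared with the same wildtype library.

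**Figure D4:**
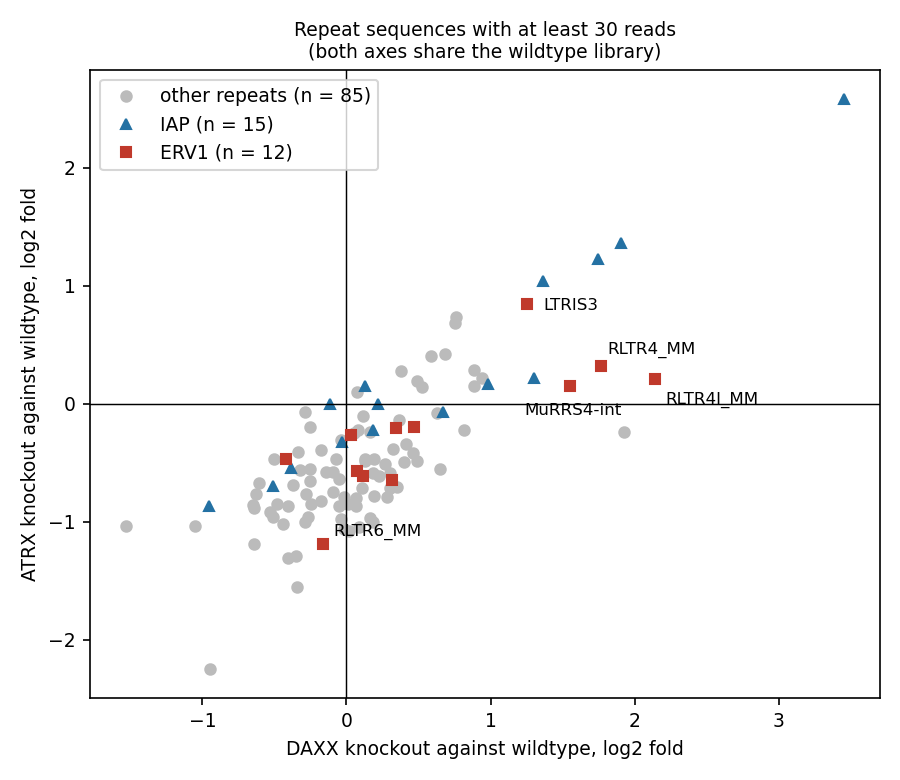
Log2 fold (prior count of 1) of the 112 repeat sequences with at least 30 reads, in the DAXX knockout (horizontal) and the ATRX knockout (vertical) against the same wildtype library, with 12 ERV1 sequences as red squares and 15 IAP sequences as blue triangles. RLTR4I_MM, RLTR4_MM and MuRRS4-int lie far to the right and near 0 vertically, while the highest IAP sequences are raised on both axes.

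Genes for silencing of retroelements were taken from a list of 40, all measured. In DAXX-/- cells 2 of 40 fell and 0 rose, with a median of -0.04, where 1.7% of all genes fell, 0.371% rose and the median was -0.07. They were Dnmt3l, which helps the de novo DNA methyltransferases, by 1.90 (-2.13 to -1.67), and Tex19.1, a germ cell and ESC gene that limits retrotransposons, by 1.91 (-2.13 to -1.70). In ATRX-/- cells 2 of 40 fell and 0 rose, with a median of -0.12, where 1.12% of all genes fell, 0.599% rose and the median was -0.05. Counts of 2 among 40 are too few to be read against those shares. Tex19.1 fell by 1.55 (-1.72 to -1.37) and the DNA methyltransferase Dnmt3b by 1.15 (-1.29 to -1.01), while Dnmt3l was at -1.14 (-1.31 to -0.97). Between the knockouts 0 of 40 were called. Zfp809, Trim28, Setdb1, Yy1 and Dnmt3l were fixed for naming, called or not. How their RNA levels relate to the MLV reads was not tested. Zfp809 had 178 reads in wildtype, 128 in DAXX-/- cells and 135 in ATRX-/- cells, at -0.16 (-0.50 to 0.18) and -0.40 (-0.73 to -0.07). Trim28 was at -0.04 (-0.07 to -0.02) and -0.44 (-0.46 to -0.41), and Setdb1 at -0.01 (-0.10 to 0.09) and -0.29 (-0.38 to -0.20). Yy1, a factor that binds the MLV LTR, was at -0.05 (-0.16 to 0.07) and 0.13 (0.02 to 0.24). Atf7ip, the partner of SETDB1, was the highest of the list in both, at 0.91 (0.81 to 1.02) and 0.86 (0.76 to 0.96), and was not called.

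Of 13 genes for entry and restriction of leukaemia viruses, 11 were measured and 0 were called in any comparison, with medians of 0.00, -0.13 and -0.06. At the shares of all genes called, which were at most 1.7% in either direction of any comparison, a count of 0 among 11 says nothing particular about the list. Slc7a1, the receptor of ecotropic MLV, was at 0.08 (-0.01 to 0.17) in DAXX-/- cells and -0.54 (-0.64 to -0.45) in ATRX-/- cells. Xpr1, the receptor of xenotropic and polytropic MLV, was at -0.04 (-0.22 to 0.15) and -0.07 (-0.24 to 0.11). Bst2, which tethers budding virus particles, had 366, 124 and 270 reads and was at -1.24 (-1.55 to -0.95) and -0.44 (-0.67 to -0.21).

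Markers of other cell types differed between the libraries beside these values. The summed level of 10 primitive endoderm genes was 597 RPM in wildtype, 202 in DAXX-/- cells and 326 in ATRX-/- cells, and 8 of 9 measured fell in DAXX-/- cells and 3 of 9 in ATRX-/- cells, where 1.7% and 1.12% of all genes fell. Sox17, a defining endoderm factor, had 20, 0 and 8 reads. For 10 fibroblast genes, which feeder cells would bring, it was 89.3, 49.3 and 62.1, with 4 of 5 measured falling in DAXX-/- cells and 0 of 5 in ATRX-/- cells. Lum was at 0 in all libraries, and Col3a1, Postn and Dcn had 2, 1 and 1 reads in wildtype and 0 in both knockouts. Vim alone held 60.0, 42.0 and 49.0 RPM of the fibroblast sums. Tagln had 207, 48 and 83 reads, and Col1a1 73, 14 and 31. The summed level of 9 trophoblast genes was 131, 83.6 and 90.6, with 2 of 6 falling in DAXX-/- cells and 1 of 6 in ATRX-/- cells. Its members did not all go one way. The keratin Krt19 fell in both, by 3.55 (-4.41 to -2.80) and 1.47 (-1.86 to -1.09), while Eomes was at -0.04 (-0.59 to 0.50) and -0.11 (-0.63 to 0.41), Tfap2c at 0.17 (0.00 to 0.34) and -0.44 (-0.62 to -0.27), and Cdx2 had 0, 3 and 13 reads. In bulk RNA, fewer cells of a type and less RNA per cell cannot be told apart. The summed levels of these 3 lists were lower in both knockouts and lowest in DAXX-/- cells, the library in which RLTR4I_MM was highest, and their part in the ERV1 values was not tested.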

How the data were processed

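Polyadenylated RNA was sequenced from 3 mouse ESC clones, 1 library each. The authors deposited raw read counts per reference sequence (transcripts and RepBase consensus sequences), not normalised. The submitters' processing notes name SAMtools, Bowtie 1.1.2 and build GRCm38.p4. The sources used here do not give alignment settings, strand or the placement of reads with several positions, so related consensus sequences may exchange reads, and a consensus does not tell which genomic copy was transcribed.

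Counts were scaled by each library's total on transcript sequences, and transcripts were summed to 24006 gene symbols. Folds have exact conditional binomial intervals (SciPy 1.17.1). With 0 residual degrees of freedom no test of genotype was possible. Features with at least 30 reads over the 3 libraries were called when the interval lay beyond 2-fold, and a count of 0 allows up to 3 reads. The rule was tried on simulated counts with counting error only, which cannot speak to differences between clones. Alternative TMM and RLE factors came from edgeR 4.0.16.

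Subgroups were formed from names, and RLTR4 was read as not followed by another digit, which is narrower than first written. Named sequences were RLTR4 and MuRRS4, those called, the 10 with most reads and LTR and internal pairs. Genes named were those called in the silencing, entry and restriction lists and a few fixed ones, with Atf7ip, Bst2, Y-linked genes and markers of other cell types added after their values were seen, as were sequences under 30 reads. Mela and Emv2, listed as virus-derived genes, were not found under these names among the gene symbols counted, so no value is given. Members and lists were chosen with earlier results of these data known. No consensus sequence is printed.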

Additional observations from a re-analysis of the deposited data

How the results depend on the processing

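Of 156 alternative values, 142 stayed close to the main value. Close meant summed folds inside the main counting interval, counts of calls within 1.5 times and medians within the median counting error of single members. Some alternatives, such as scaling by all aligned reads, could move values only little. Wide intervals also let large shifts count as close. Without its member with the most reads, the RLTR1 sum went from 0.01 to -0.68 in DAXX-/- cells and counted as close. In DAXX-/- cells against wildtype the number of ERV1 sequences that rose was 1, and became 3 with TMM, with RLE and with a fold limit of 1.5. In ATRX-/- cells against DAXX-/- cells the number that fell was 1, and became 3 with the limit of 1.5. Without its member with the most reads, the ERV1 sum stood at 0.38 in DAXX-/- cells, -0.45 in ATRX-/- cells and -0.83 between the knockouts, the MLV group at 1.84 in DAXX-/- cells and -1.50 between the knockouts, and the GLN group at -0.45 in DAXX-/- cells and -0.0546 between the knockouts, as these sums then hold fewer reads and other sequences. With no filter beyond 1 read the median over ERV1 sequences went from 0.33 to -0.08 in DAXX-/- cells, changing sign, and from -0.23 to -0.59 in ATRX-/- cells, both within that counting error, since sequences with few reads then enter. For the other changes the cause was not tested. No paired analysis was possible because each genotype had 1 library, and leaving out the 1 library of a genotype removes every comparison with it. Tests with edgeR or DESeq2 could not be fitted, with 0 residual degrees of freedom. Adding the names RLTR40, RLTR41, RLTR48 and RLTR49 to the MLV group, chosen after seeing the data, kept its folds within their intervals. With MMVL30 added, the VL30 LTR share moved below its counting interval in all 3 libraries (13.2%, 10.96% and 7.59%). Depth limits all members below 30 reads.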

Other observations

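Beside ERV1 and IAP, 1 other repeat was called higher in DAXX-/- cells against wildtype, and it was named after its values were seen. GSAT_MM, the major satellite of pericentromeric heterochromatin, had 12 reads in wildtype, 39 in DAXX-/- cells and 10 in ATRX-/- cells. Its log2 fold was 2.02 (1.05 to 3.09) in DAXX-/- cells and -0.26 (-1.63 to 1.07) in ATRX-/- cells. The satellite thus had its high library in common with RLTR4I_MM, from far fewer reads. Of the 112 repeat sequences, 64 lay above 0 in DAXX-/- cells against wildtype. Between the knockouts 103 were lower in ATRX-/- cells, so a high DAXX-/- library is not particular to these 2.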
